A study of Loxodonta africana with 12 samples.

Results

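The genes described are those of cholesterol synthesis in the blood cells of the African elephant (Loxodonta africana), chosen by symbol from a list of 7. Of these, 6 had a row among the 16406 genes of each table, namely HMGCS1, IDI1, FDFT1, SQLE, LSS and INSIG1. FDPS matched no row by that symbol and was not analysed here. The list is named for synthesis and uptake, but the 6 are 5 enzymes of synthesis and 1 protein that controls them, and none is an uptake receptor. All 6 passed the filter on low counts in every comparison, with at least 465 counts in each library.

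RNA from blood cells was sequenced after depletion of ribosomal RNA, to find genes that differ between irradiated and untreated cells. The 4 groups were cells given 2 Gy and taken at 24 h, untreated cells at 24 h, cells given 2 Gy and taken at 5 h, and untreated cells at 5 h, with 3 libraries each. All groups share the source, blood, and the labels name no genotype, age, sex or number of animals. Nothing in the labels ties a replicate to an animal, a blood draw or a culture. The p-values therefore describe only how far these libraries scatter, and that scatter may be technical.

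Cells make cholesterol from acetyl-CoA by way of mevalonate, isoprenoid diphosphates, squalene and lanosterol. The transcription factor SREBP-2 switches on the genes of these steps when the membranes of the endoplasmic reticulum run low in sterol, and INSIG proteins hold SREBP back when sterol is plentiful. Dividing lymphocytes draw on this pathway for new membrane.

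Library totals were 18.0e6 to 23.8e6 counts in irradiated cells at 24 h, 22.9e6 to 37.4e6 in untreated cells at 24 h, 31.1e6 to 38.1e6 in irradiated cells at 5 h, and 31.1e6 to 36.0e6 in untreated cells at 5 h. The first principal component held 79% of the variance and separated the times. Levels are CPM, counts per 1e6 counts of a library, scaled by TMM over all 12 libraries, and calls are edgeR quasi-likelihood tests with a Benjamini-Hochberg adjusted p below 0.05 over all genes tested. Blood cell markers were found throughout, and none with a row was at 0 in any group. The summed level of the monocyte and macrophage markers, the highest of the 7 marker lists, was 2734 to 6948 CPM across libraries, and that of the erythroid markers was 10.3 to 37.6 CPM. The B cell markers summed to 58.9 to 78.3 CPM in irradiated and 398 to 488 CPM in untreated libraries at 24 h, and to 186 to 244 CPM in irradiated and 294 to 357 CPM in untreated libraries at 5 h.

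Per exon kilobase, the scale on which genes can be set side by side, the order of the 6 genes differed between the times. At 24 h INSIG1 had the highest mean, 132 ± 38.3 CPM per kb in irradiated and 123 ± 22.2 CPM per kb in untreated cells (SD, n = 3 each). SQLE came next with 62.1 ± 4.70 and 74.7 ± 2.78 CPM per kb in irradiated and untreated cells. HMGCS1 averaged 42.1 CPM per kb in irradiated and 61.9 CPM per kb in untreated cells, and its libraries overlapped those of IDI1 in both groups. FDFT1 and LSS were lowest, at 18 and 16.6 CPM per kb in irradiated cells and 22.8 and 20.4 CPM per kb in untreated cells, and their libraries overlapped. At 5 h HMGCS1 led with 136 ± 3.74 CPM per kb in irradiated and 173 ± 10 CPM per kb in untreated cells, followed by SQLE, INSIG1, IDI1, FDFT1 and LSS, with no overlap between neighbours in either group. LSS was lowest in all 4 groups.

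**Figure D1:**
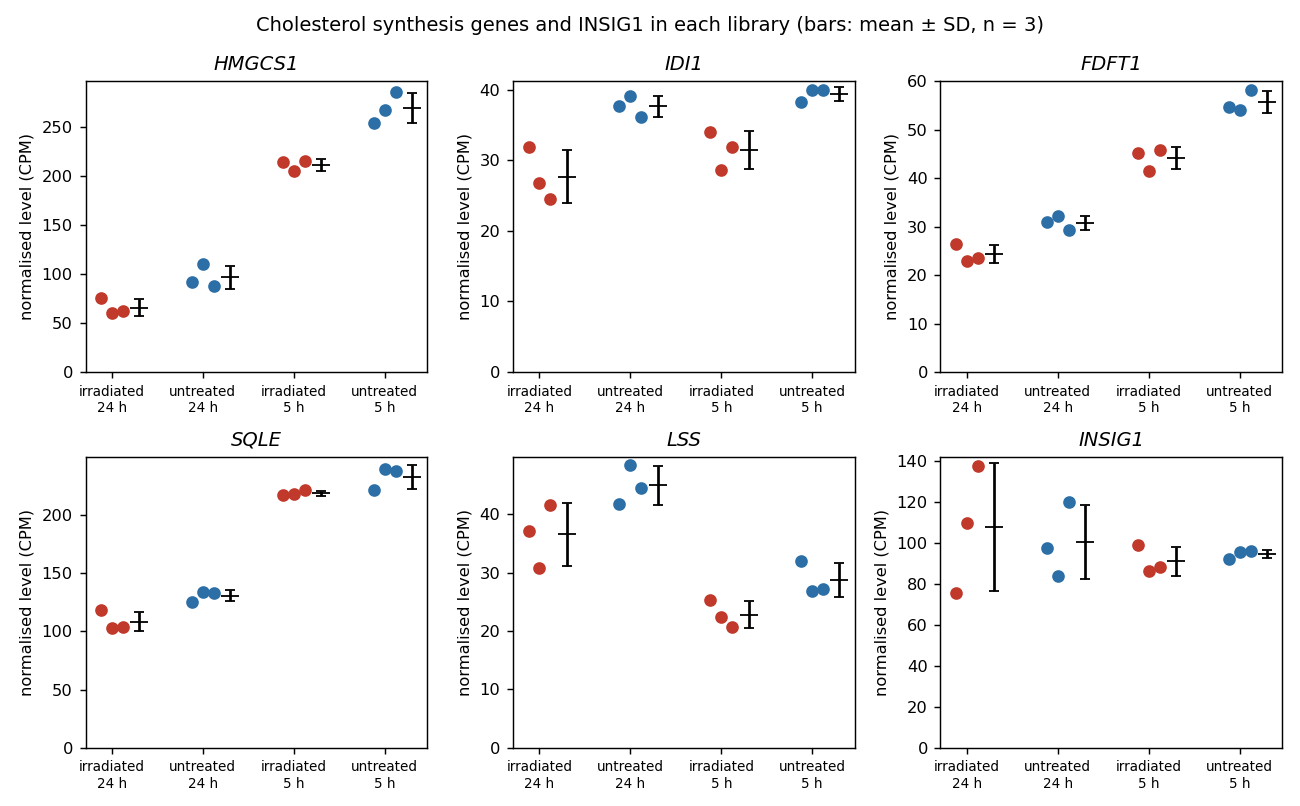
Normalised level in CPM (linear axis from 0) of the 6 genes in each of 12 libraries, by group. Red points are irradiated and blue points untreated libraries, and the bars give the mean ± SD (n = 3). HMGCS1 averages 65.9 and 96.8 CPM in irradiated and untreated cells at 24 h and 212 and 270 CPM at 5 h, and INSIG1 has its widest spread in irradiated cells at 24 h, where its libraries lie between 75.6 and 138 CPM.

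Irradiated and untreated cells were compared first at 24 h. HMGCS1 fell, to a level 1.48-fold lower, and the other 4 enzymes lay 1.21- to 1.37-fold lower without passing the test. INSIG1 did not pass either, and its direction was uncertain. The 5 enzymes did not overlap between the groups, all being lower in irradiated cells. Of all 14373 genes tested, 16.8% were lower without overlap in this way.

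HMGCS1, which condenses acetyl-CoA with acetoacetyl-CoA ahead of mevalonate (ENSLAFG00000017986, scaffold 7, 48258273 to 48266394, minus strand), had 75.4, 60.3 and 61.9 CPM in irradiated libraries and 92.0, 110 and 88.1 CPM in untreated libraries. Every irradiated library lay below every untreated one. The log2 fold change was -0.56 ± 0.13 (SE, edgeR adjusted p = 0.046). The call rested on single libraries. Leaving out irradiated replicate 2 or 3, or untreated replicate 1, 2 or 3, gave an adjusted p of 0.18, 0.14, 0.098, 0.13 and 0.09, and with RLE scaling it was 0.057.

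IDI1 interconverts the isoprenoid building blocks isopentenyl and dimethylallyl diphosphate (ENSLAFG00000003723, scaffold 15, 6921223 to 6927616, plus strand). It had 31.8, 26.7 and 24.5 CPM in irradiated libraries and 37.7, 39.1 and 36.1 CPM in untreated libraries, with no overlap (log2 fold change -0.45 ± 0.12, adjusted p = 0.068). A related gene, IDI2, has a row of its own, and how reads shared by the pair were counted is not known here, so both are uncertain. FDFT1, squalene synthase, makes the first committed step towards sterols (ENSLAFG00000007372, scaffold 22, 1021531 to 1058201, minus strand). Its levels were 26.5, 23.0 and 23.6 CPM in irradiated and 30.9, 32.2 and 29.3 CPM in untreated libraries, also without overlap (-0.35 ± 0.09, adjusted p = 0.078).

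SQLE, the epoxidase that adds oxygen to squalene (ENSLAFG00000003760, scaffold 8, 70683819 to 70705174, plus strand), had 118, 103 and 104 CPM in irradiated libraries and 125, 134 and 133 CPM in untreated libraries. The difference was -0.27 ± 0.09 on the log2 scale (adjusted p = 0.13). LSS, the cyclase that closes the rings of lanosterol (ENSLAFG00000003317, scaffold 126, 409847 to 446442, plus strand), had 37.2, 30.8 and 41.7 CPM in irradiated libraries and 41.8, 48.5 and 44.6 CPM in untreated libraries. Its groups were separated by a narrow gap between 41.7 and 41.8 CPM (log2 fold change -0.31 ± 0.12, adjusted p = 0.18).

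INSIG1 retains the SREBP carrier SCAP in the endoplasmic reticulum and is itself an SREBP target (ENSLAFG00000028120, scaffold 12, 65891577 to 65906239, plus strand). It had 75.6, 110 and 138 CPM in irradiated libraries and 97.8, 84.0 and 120 CPM in untreated libraries. The groups overlapped, and both the lowest and the highest of the 6 libraries were irradiated (log2 fold change 0.09 ± 0.23, adjusted p = 0.86). Its sign turned to -0.14 without irradiated replicate 3 and to -0.02 without untreated replicate 2.

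By count, 1 of the 6 genes was called lower and 0 higher at 24 h, where 4.94% of all genes tested were called lower and 1.80% higher. The median log2 fold change of the 6 was -0.33, against 0.01 over all genes tested. The summed level of the 6 was 371 ± 20.9 CPM in irradiated and 441 ± 14.1 CPM in untreated cells. Without irradiated replicate 1 the number called lower was 3, with IDI1 (adjusted p = 0.022) and FDFT1 (adjusted p = 0.045) added. In that fit 1061 genes were called in either direction, against 968 in the main fit, and no share by direction was computed. Leaving out any other library gave 0 of the 6 called lower. In the main fit the B cell markers were called lower in 9 of 9, the NK and cytotoxic markers in 4 of 7 and the T cell markers in 3 of 10. Markers of monocytes and macrophages were called higher in 3 of 7, those of platelets in 3 of 6 and those of neutrophils in 2 of 9. Of 5 erythroid markers 0 were called. In bulk samples, fewer cells of a type and less RNA per cell cannot be told apart, and the part of these cell types in the levels of the 6 genes was not tested.

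**Figure D2:**
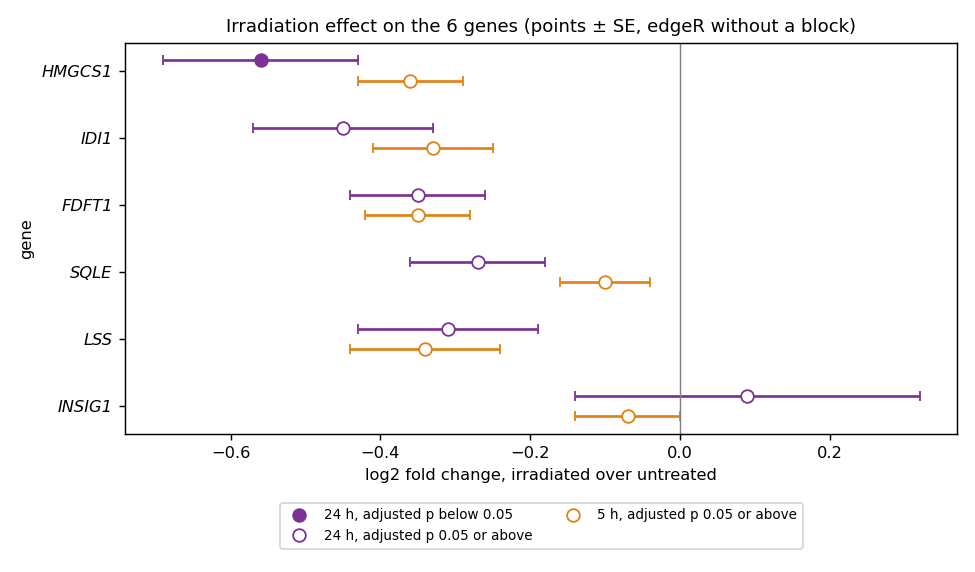
Log2 fold change of irradiated over untreated cells for the 6 genes at 24 h (purple) and 5 h (orange), with the standard error as bars and 0 as the vertical line. Filled points have an adjusted p below 0.05 in edgeR without a replicate block. At both times the 5 enzymes lie left of 0, between -0.56 and -0.27 at 24 h and between -0.36 and -0.10 at 5 h, while INSIG1 lies at 0.09 and -0.07.

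The same comparison was made at 5 h. HMGCS1, FDFT1, LSS and IDI1 were each about 1.26- to 1.28-fold lower in irradiated cells, SQLE and INSIG1 were 1.07- and 1.05-fold lower, and the outcome of the test depended on whether same-numbered libraries were treated as pairs. Without a block for the replicate number, 0 of the 6 were called, where 0.478% of all genes were called lower and 1.12% higher. At an unadjusted p below 0.05 there were 4 lower and 0 higher, for which no share of all genes was computed. DESeq2 called 2 of the 6 lower and 0 higher, where 191 of 16401 genes were called lower and 227 higher. With the block, edgeR called 4 of the 6 lower and 0 higher, where 9.92% of all genes were called lower and 10.6% higher. Same-numbered libraries deviated together at this time, and for that reason both results are given.

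HMGCS1 had 215, 205 and 216 CPM in irradiated libraries and 255, 268 and 286 CPM in untreated libraries at 5 h. The groups did not overlap and the irradiated library was the lower of each of the 3 pairs. The log2 fold change was -0.36 ± 0.07, with an adjusted p of 0.054 without the block and 2.2e-05 with it. FDFT1 had 45.2, 41.6 and 45.9 CPM in irradiated libraries and 54.8, 54.2 and 58.3 CPM in untreated libraries. It too was separated between the groups (log2 fold change -0.35 ± 0.07, adjusted p = 0.065 without the block and 0.00015 with it).

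LSS had 25.3, 22.5 and 20.7 CPM in irradiated libraries and 32.1, 26.9 and 27.2 CPM in untreated libraries. The 3 pairs gave log2 ratios of -0.35, -0.25 and -0.39, with an adjusted p of 0.22 without the block and 0.00073 with it. IDI1 had 34.0, 28.6 and 31.8 CPM in irradiated libraries and 38.2, 40.0 and 39.9 CPM in untreated libraries. Its groups did not overlap either (log2 fold change -0.33 ± 0.08, adjusted p = 0.13 without the block and 0.0014 with it).

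SQLE and INSIG1 passed neither test. SQLE had 217, 218 and 221 CPM in irradiated libraries and 221, 239 and 238 CPM in untreated libraries, and the groups met at 221 CPM. Its log2 fold change was -0.10 ± 0.06 (adjusted p = 0.60, and 0.12 with the block). INSIG1 had 99.2, 86.2 and 88.2 CPM in irradiated libraries and 92.4, 95.6 and 96.2 CPM in untreated libraries, so that the highest library was irradiated and so was the lowest (-0.07 ± 0.07, adjusted p = 0.76, and 0.41 with the block).

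Over the 6 genes and 3 pairs at 5 h, the irradiated library was the lower in 17 of 18, the exception being INSIG1 in replicate 1. The 18 come from the same 3 pairs of libraries, and no share over all genes was computed for them. Lower levels without overlap were seen in 4 of the 6 genes, against 8.43% of all genes tested. The median log2 fold change was -0.34, and that of all genes tested was -0.00. The 6 genes summed to 621 ± 16.9 CPM in irradiated and 721 ± 26.1 CPM in untreated cells. Of the B cell markers, 1 of 9 was called lower without the block and 9 of 9 with it. With the block, 6 of 10 T cell markers and 5 of 7 NK and cytotoxic markers were also called lower, and 5 of 7 monocyte and macrophage markers were called higher and 2 lower. Without it 0 of the T cell and NK markers and 1 monocyte marker, which was higher, were called. Platelet markers were called higher in 1 of 6 with the block and without it. Of 8 neutrophil markers, 1 was called higher without the block, and 2 were higher and 2 lower with it. Of 5 erythroid markers 0 were called in either fit. The part of these cell types in the levels of the 6 genes was not tested.

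Whether irradiation acted differently at the 2 times was tested as an interaction over all 12 libraries. None of the 6 genes was called by edgeR (0 at an unadjusted p below 0.05, and 0 by DESeq2), where 0.882% of all genes were called in either direction. The largest difference of the effects, 24 h minus 5 h, was that of HMGCS1 at -0.21 ± 0.15 on the log2 scale (adjusted p = 0.79), followed by SQLE at -0.18 ± 0.11 (0.71) and INSIG1 at 0.16 ± 0.26 (0.95). For FDFT1 it was -0.00 ± 0.12, so that its effect was -0.35 at both times.

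The times themselves were compared within each treatment. HMGCS1, SQLE and FDFT1 were lower at 24 h and LSS was higher, in irradiated and in untreated cells alike, and IDI1 and INSIG1 passed the test in neither. These comparisons set libraries of the 2 deposited tables against each other. The sources say nothing of how cells were kept between the times or whether libraries were made together, and time and any such batch cannot be told apart.

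Of the 6 genes HMGCS1 changed most. In irradiated cells it averaged 65.9 ± 8.32 CPM at 24 h and 212 ± 5.85 CPM at 5 h, 3.09-fold lower (log2 fold change -1.63 ± 0.11, edgeR adjusted p = 1e-05). In untreated cells it averaged 96.8 ± 11.7 CPM at 24 h and 270 ± 15.6 CPM at 5 h, 2.71-fold lower (-1.44 ± 0.11, adjusted p = 1.3e-05). Its 24 h and 5 h libraries lay far apart in both treatments.

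SQLE averaged 108 ± 8.19 CPM at 24 h and 219 ± 2.16 CPM at 5 h in irradiated cells (log2 fold change -0.96 ± 0.09, adjusted p = 6e-05). In untreated cells it averaged 130 ± 4.85 CPM at 24 h and 232 ± 9.98 CPM at 5 h (-0.79 ± 0.08, adjusted p = 7.1e-05). The times did not overlap in either treatment. FDFT1 averaged 24.4 ± 1.86 CPM at 24 h and 44.2 ± 2.30 CPM at 5 h in irradiated cells (-0.80 ± 0.10, adjusted p = 0.00023), and 30.8 ± 1.42 CPM at 24 h and 55.8 ± 2.19 CPM at 5 h in untreated cells (-0.82 ± 0.09, adjusted p = 7.2e-05).

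LSS went the other way. It averaged 36.5 ± 5.46 CPM at 24 h and 22.8 ± 2.28 CPM at 5 h in irradiated cells (log2 fold change 0.73 ± 0.14, adjusted p = 0.0016), and 45.0 ± 3.39 CPM at 24 h and 28.7 ± 2.94 CPM at 5 h in untreated cells (0.69 ± 0.10, adjusted p = 0.0004). All 4 of these genes kept their calls when any 1 library was left out. IDI1 differed between the times by -0.13 ± 0.13 in irradiated and -0.02 ± 0.08 in untreated cells, and INSIG1 by 0.30 ± 0.19 and 0.13 ± 0.13 on the log2 scale. For IDI1 the adjusted p was 0.40 and 0.83, and for INSIG1 it was 0.20 and 0.39. Without irradiated replicate 1 at 24 h both passed in irradiated cells, INSIG1 at 0.41 (adjusted p = 0.0091) and IDI1 at -0.33 (adjusted p = 0.029). INSIG1 was at -0.00 without irradiated replicate 3 at 24 h.

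In each treatment 3 of the 6 genes were thus called lower and 1 higher at 24 h. Among all genes, 30.6% were called lower and 35.3% higher in irradiated cells, and 30.5% were called lower and 32.6% higher in untreated cells. The 4 called genes did not overlap between the times, which held for 70.6% of all genes in irradiated and 68.6% in untreated cells. The median log2 fold change over all genes tested was 0.10 in irradiated and 0.11 in untreated cells. Beside these changes, the neutrophil markers summed to 481 to 522 CPM at 24 h and 1268 to 1521 CPM at 5 h in irradiated libraries, and to 249 to 337 CPM at 24 h and 1112 to 1364 CPM at 5 h in untreated libraries. The B cell markers were called lower at 24 h in 9 of 9 in irradiated cells and higher in 4 of 9 in untreated cells. The T cell markers were called higher in 3 of 10 and lower in 1 of 10 in irradiated cells, and higher in 6 of 10 in untreated cells. The NK and cytotoxic markers were called higher in 1 of 7 and lower in 2 of 7 in irradiated cells, and higher in 4 of 7 in untreated cells. The monocyte and macrophage markers were called higher in 3 of 7 and lower in 1 of 7 in both treatments. Platelet markers were called lower in 2 of 6 in untreated cells and in 0 of 6 in irradiated cells. Of 5 erythroid markers 0 were called in either treatment. The part of these cell types in the levels of the 6 genes was not tested.

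**Figure D3:**
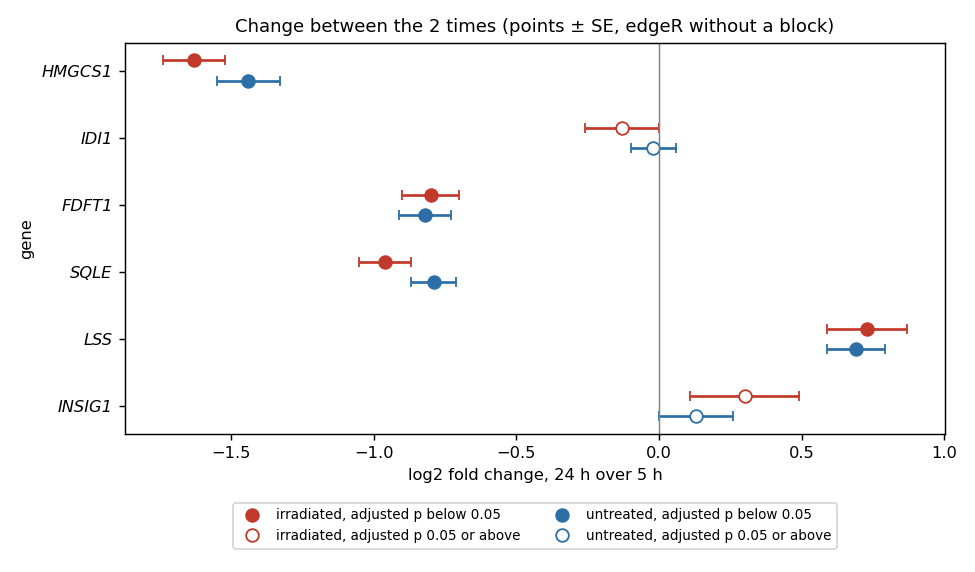
Log2 fold change of 24 h over 5 h for the 6 genes in irradiated (red) and untreated (blue) cells, with the standard error as bars and 0 as the vertical line. Filled points have an adjusted p below 0.05 in edgeR without a replicate block. HMGCS1, SQLE and FDFT1 lie left of 0 and LSS right of 0 in both treatments, from -1.63 for HMGCS1 in irradiated cells to 0.73 for LSS in irradiated cells.

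The other genes of sterol and lipid handling were taken from 7 lists holding 72 genes, of which 70 had a row and 68 were tested at 24 h. At 24 h, 10 of the 68 were called lower and 1 higher in irradiated cells, where 4.94% of all genes tested were called lower and 1.80% higher. The steps after lanosterol held 4 of the 10 lower calls. None of 6 tested genes of the mevalonate steps, none of 11 genes of SREBP control and none of 8 genes of prenyl use was called by edgeR. At an unadjusted p below 0.05 these lists held 2, 1 and 2 lower genes and 0 higher, for which no share of all genes was computed. DESeq2 called 1, 0 and 1 lower, where 1076 of 16406 genes were called lower.

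Of the 10 genes after lanosterol, 4 fell, 0 rose and 6 did not pass at 24 h, with a median log2 fold change of -0.31. CYP51A1, the demethylase that acts first on lanosterol, had 40.7, 33.6 and 37.3 CPM in irradiated libraries and 64.9, 66.7 and 66.4 CPM in untreated libraries. Its groups were far apart and it kept its call when any 1 library was left out (log2 fold change -0.84 ± 0.09, adjusted p = 0.0039).

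DHCR7, the last reductase in one branch of the pathway, had 15.6, 12.9 and 13.3 CPM in irradiated libraries and 21.4, 23.1 and 25.2 CPM in untreated libraries at 24 h. Again no irradiated library reached an untreated one (log2 fold change -0.74 ± 0.11, adjusted p = 0.013, with 0.073 without irradiated replicate 2 and 0.061 without untreated replicate 3). MSMO1, a methyl sterol oxidase, had 56.0, 47.0 and 45.8 CPM in irradiated libraries and 75.2, 77.5 and 69.2 CPM in untreated libraries (-0.58 ± 0.11, adjusted p = 0.026). MSMO1 lost its call on leaving out any 1 library but irradiated replicate 1, with adjusted p between 0.066 and 0.12. LBR, a sterol reductase that also anchors chromatin at the nuclear envelope and has the highest level per kilobase of this list, averaged 197 ± 8.69 CPM in irradiated and 227 ± 16.7 CPM in untreated cells (adjusted p = 0.23).

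Of the 67 genes of the 7 lists tested at 5 h, 1 was called without the block, DHCR7, and with the block 13 were lower and 6 higher. Over all genes tested 0.478% were called lower without the block, and 9.92% were lower and 10.6% higher with it, so the higher calls of the lists are near the share of all genes. DHCR7 had 11.9, 12.1 and 12.2 CPM in irradiated libraries and 16.9, 16.2 and 16.6 CPM in untreated libraries, with little spread in either group (log2 fold change -0.47 ± 0.08, adjusted p = 0.032, and 0.00023 with the block). The call without the block was lost on leaving out any 1 of the 6 libraries, with adjusted p between 0.073 and 0.17, and in a fit of all 12 libraries (0.052). With the block 5 of the 10 genes after lanosterol were called lower and 0 higher, among them CYP51A1 (-0.36 ± 0.05, adjusted p = 0.00015). Not every lipid gene went down with the block at 5 h. ACLY, which makes cytosolic acetyl-CoA from citrate, averaged 283 ± 7.91 CPM in irradiated and 225 ± 13.2 CPM in untreated cells (log2 fold change 0.32 ± 0.04, adjusted p = 4.8e-05 with the block and 0.088 without it), and MVD, which decarboxylates mevalonate diphosphate, had a log2 fold change of 0.29 ± 0.05, with an adjusted p of 0.00048 with the block and 0.32 without it.

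Uptake and intracellular handling gave 2 lower and 0 higher calls among 14 tested genes at 24 h. Over all genes tested 4.94% were called lower and 1.8% higher. STARD4, a carrier of sterol between membranes, had 9.54, 7.92 and 7.16 CPM in irradiated libraries and 14.6, 14.0 and 13.1 CPM in untreated libraries. The groups did not overlap (log2 fold change -0.77 ± 0.14, adjusted p = 0.024), but the call was lost without any 1 of the libraries other than irradiated replicate 1 (0.064 to 0.11). SCARB1, a receptor for high-density lipoprotein, was near the lower end of detection with 0.725, 0.806 and 0.457 CPM in irradiated libraries and 1.86, 2.51 and 2.05 CPM in untreated libraries (-1.68 ± 0.32, adjusted p = 0.025). Leaving out replicate 2 or 3 of either group took its adjusted p to between 0.07 and 0.093.

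Among 8 genes of efflux and LXR targets, 1 was called higher and 1 lower at 24 h, against 1.8% higher and 4.94% lower over all genes tested. CH25H hydroxylates cholesterol to an oxysterol that binds INSIG proteins and restrains SREBP. It had 45.2, 49.5 and 39.0 CPM in irradiated libraries and 23.6, 21.8 and 18.8 CPM in untreated libraries, so that the lowest irradiated library was above the highest untreated one (log2 fold change 1.05 ± 0.14, adjusted p = 0.0074), and the call held without any 1 library. At 5 h it was low in both groups, 2.50 ± 0.789 CPM in irradiated and 3.22 ± 0.767 CPM in untreated cells. APOE, the lipoprotein component that macrophages secrete with cholesterol, averaged 50.2 ± 4.43 CPM in irradiated and 80.8 ± 12.1 CPM in untreated cells at 24 h (-0.69 ± 0.12, adjusted p = 0.02). Its call was lost without irradiated replicate 2 or untreated replicate 2 or 3, with adjusted p between 0.067 and 0.10.

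Fatty acid synthesis had 3 lower and 0 higher calls among 11 genes at 24 h, against 4.94% lower and 1.8% higher over all genes tested. FADS2, a desaturase of polyunsaturated fatty acids, had 5.04, 6.04 and 7.00 CPM in irradiated libraries and 18.4, 13.3 and 17.4 CPM in untreated libraries. The highest irradiated library was well below the lowest untreated one, and the call held without any 1 library (log2 fold change -1.46 ± 0.18, adjusted p = 0.006). FADS1, a related desaturase, and ACACA, acetyl-CoA carboxylase, fell by 0.58 ± 0.11 and 0.44 ± 0.08 on the log2 scale (adjusted p = 0.029 and 0.022). FADS1 lost its call without irradiated replicate 2 or 3 or untreated replicate 1 or 3 (0.06 to 0.13), and ACACA without any 1 library other than irradiated replicate 1 (0.062 to 0.11) and in a fit of all 12 libraries (0.072).

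**Figure D4:**
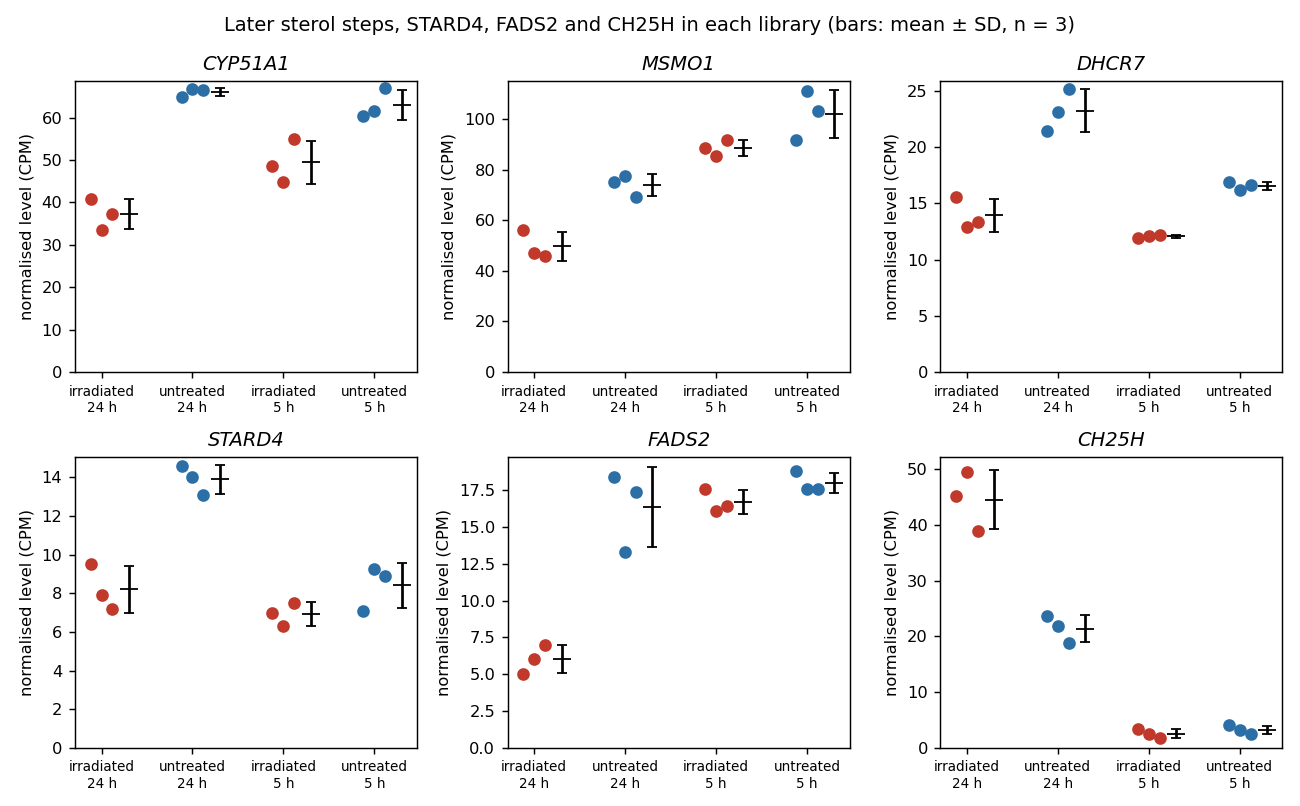
Normalised level in CPM (linear axis from 0) in each of 12 libraries for 3 genes of the steps after lanosterol and for STARD4, FADS2 and CH25H. Red points are irradiated and blue points untreated libraries, and the bars give the mean ± SD (n = 3). CYP51A1 averages 37.2 and 66.0 CPM in irradiated and untreated cells at 24 h, and CH25H averages 44.5 and 21.4 CPM at 24 h but 2.50 and 3.22 CPM at 5 h.

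Between the times, the lists around the 6 genes changed in both directions. SREBF2, which encodes SREBP-2, was lower at 24 h in both treatments. It averaged 60.2 ± 8.44 CPM at 24 h and 134 ± 16 CPM at 5 h in irradiated cells (log2 fold change -1.09 ± 0.13, adjusted p = 0.00016), and 64.0 ± 7.24 CPM at 24 h and 139 ± 18.4 CPM at 5 h in untreated cells (-1.09 ± 0.12, adjusted p = 0.0001). Of the 11 genes of SREBP control, 6 were lower in each treatment, with 3 higher in irradiated and 2 higher in untreated cells. Among all genes tested, 30.6% were lower and 35.3% higher in irradiated cells and 30.5% were lower and 32.6% higher in untreated cells. Among the mevalonate steps, 2 of 6 were called lower and 2 higher in each treatment, near those shares. MVD had log2 fold changes of -0.70 ± 0.13 and -0.57 ± 0.10 in irradiated and untreated cells, and MVK, mevalonate kinase, of 1.06 ± 0.20 and 1.29 ± 0.14.

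After lanosterol, 6 of 10 genes were lower and 1 higher at 24 h in irradiated cells, and 3 were lower and 2 higher in untreated cells. Against the shares of all genes just given, the lower calls in untreated cells are near the background. The difference between these counts was not tested as such, and 0 of the 10 genes passed the interaction test in edgeR (0 higher and 3 lower at an unadjusted p below 0.05, and 0 by DESeq2). No share of all genes at that unadjusted p was computed. EBP, a sterol isomerase, was higher in both treatments, with 29.3 ± 3.84 CPM at 24 h and 7.59 ± 0.658 CPM at 5 h in irradiated cells and 33.0 ± 2.28 CPM at 24 h and 9.25 ± 0.726 CPM at 5 h in untreated cells. LBR was lower in both, with log2 fold changes of -0.94 ± 0.09 in irradiated and -0.79 ± 0.09 in untreated cells.

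Of 14 tested genes of uptake and intracellular handling, 5 were called higher and 2 lower at 24 h in irradiated cells. In untreated cells 6 were called higher and 4 lower. Of the 8 genes of efflux and LXR targets, 5 were called higher and 2 lower in each treatment. Among all genes 35.3% and 32.6% were higher and 30.6% and 30.5% lower in irradiated and untreated cells. The lysosomal genes LIPA, which frees cholesterol from its esters, and NPC2, which passes it on, were higher at 24 h. LIPA changed by 2.23 ± 0.26 in irradiated and 2.07 ± 0.19 in untreated cells on the log2 scale, and NPC2 by 0.95 ± 0.11 and 1.07 ± 0.10. APOE averaged 50.2 CPM at 24 h and 2.88 CPM at 5 h in irradiated cells, and 80.8 CPM at 24 h and 4.97 CPM at 5 h in untreated cells (log2 fold change 4.18 ± 0.15 and 4.05 ± 0.19). CH25H was higher at 24 h by 4.21 ± 0.22 in irradiated and 2.78 ± 0.19 in untreated cells. In prenyl use, RABGGTB, a subunit of the enzyme that prenylates Rab proteins, was lower at 24 h, with log2 fold changes of -1.66 ± 0.09 in irradiated and -1.27 ± 0.09 in untreated cells. The highest edgeR adjusted p among LIPA, NPC2, APOE, CH25H and RABGGTB was 0.00014.

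The genes whose profile over the 12 libraries was most like the mean of the 6 were TRIT1, ADPRHL2, CFAP97, GPATCH2 and FDX1. Likeness is the root mean square difference of centred log2 CPM, which was 0.0719 to 0.0951 for these 5, against a median of 0.422 over 10390 genes. The 6 genes themselves lay 0.192 (IDI1) to 0.584 (HMGCS1) from their own mean. For HMGCS1, the gene with the largest interaction among the 6, the nearest were CRYBG3, AIMP2, NR2C2AP, ABCE1 and B3GNT5, at 0.13 to 0.152. All such values share the same 12 libraries, where the time of sampling holds most of the variance, and are descriptions.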

How the data were processed

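RNA of 12 libraries of African elephant blood cells was column-purified and made into stranded, ribosome-depleted libraries, per the labels' protocols. The authors deposited 1 table per time, with raw read counts per gene, exon base pairs and a log2 ratio of untreated over irradiated. The log2 ratio in the authors' deposited table runs opposite to the direction used here and was only compared with the fits. For HMGCS1 the authors' deposited table gives 0.50 at 24 h and 0.37 at 5 h. Per the file headers, coordinates are on scaffolds of L_africana_Jul_2009. They are printed as given, since the header does not say whether they count from 0 or 1. The sources used here name no aligner, counting program or use of strand. A further 24 per-library columns were not used.

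Counts were tested with edgeR 4.0.16 in R 4.3.3 (TMM, filterByExpr, quasi-likelihood, Benjamini-Hochberg at 0.05 over all genes tested), on the 6 libraries of the groups compared, or on all 12 for the interaction. CPM and CPM per exon kilobase use TMM factors over 12 libraries. Repeats used DESeq2 1.42.0, RLE scaling, no filter, a mean of at least 1 CPM, all 12 libraries in 1 fit, the replicate number as a block, and each library left out in turn. The code was tested on simulated data.

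To see if equal replicate numbers mark pairs, each library's deviation from its group mean was correlated with those of the other group over 9561 genes. At 5 h same-numbered libraries correlated at 0.67 to 0.82 and differently numbered ones at -0.59 to -0.04, so the numbers were taken to pair them. At 24 h same-numbered libraries correlated at -0.59 to 0.85 and differently numbered ones at -0.82 to 0.84. There irradiated replicates 1, 2 and 3 correlated best with untreated replicates 2, 1 and 3, so the numbers were not taken to pair them. Between the times same-numbered libraries correlated at -0.17 to 0.16. No 2 libraries of a group agreed within sampling noise.

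The members and lists were chosen with earlier results of these data known. Named are the 6 genes, and of each list the called genes, at most 4 per comparison by p, with the gene of highest level per kilobase. Some genes so selected are not reported here.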

Additional observations from a re-analysis of the deposited data

Results flagged for a closer look

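By an edgeR interaction term over all 12 libraries, the effect of irradiation differed between the times for 2 of 69 list genes tested. Over all genes tested 0.882% passed in either direction. For CH25H the effect at 24 h minus that at 5 h was 1.42 ± 0.30 on the log2 scale (adjusted p = 0.048, and 0.0006 by DESeq2). Its level was 44.5 ± 5.28 CPM in irradiated and 21.4 ± 2.42 CPM in untreated cells at 24 h, and 2.50 ± 0.789 CPM in irradiated and 3.22 ± 0.767 CPM in untreated cells at 5 h (SD, n = 3 each). The call was lost on leaving out any of 9 of the 12 libraries, with adjusted p between 0.065 and 0.15. For FADS2 the difference of the effects was -1.34 ± 0.20 (adjusted p = 0.0057), and it passed without any 1 of the 12 libraries, with adjusted p between 0.002 and 0.022. FADS2 averaged 6.03 ± 0.982 CPM in irradiated and 16.4 ± 2.68 CPM in untreated cells at 24 h, and 16.7 ± 0.772 CPM in irradiated and 18 ± 0.695 CPM in untreated cells at 5 h. Beside these values, 8 of 9 B cell markers also passed the interaction test, all with a lower effect at 24 h, and their part in the values of CH25H and FADS2 was not tested.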

How the results depend on the processing

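The replicate block set the count of genes called between irradiated and untreated cells at 5 h, which was 2655 with it and 207 without it, and 418 by DESeq2. Of the 6 genes, 4 were called lower at 5 h with the block and 2 by DESeq2. At 24 h irradiated replicates 1, 2 and 3 correlated best with untreated replicates 2, 1 and 3 (0.837, 0.535 and 0.85). The block by number does not follow that order, and a fit with it was not run. Between the times all correlations lay between -0.21 and 0.18. With the block at 24 h, 225 genes were called higher and 482 lower, against 258 and 710 without it, and 0 of the 6 were called (HMGCS1 adjusted p = 0.065, edgeR). ACACA also lost its call there (adjusted p = 0.066). RLE scaling also left 0. DESeq2 called 2 of the 6 lower, where 1076 of 16406 genes were called lower. A fit of all 12 libraries called 3 of the 6 lower, where 1162 of 15200 genes were called lower. The count over all genes at 24 h was 968, and 1557 by DESeq2 and 1670 with all 12 libraries in 1 fit. The interaction count was 134, and 344 by DESeq2. Leaving out 1 library gave 86 to 191 genes called at 5 h, 293 to 1061 at 24 h and 76 to 168 for the interaction. It gave 0 to 3 of the 6 called lower at 24 h, and 1 to 2 called higher at 24 h against 5 h in irradiated cells. Signs turned for some values of IDI1, FDFT1, LSS and INSIG1 that did not pass the test. IDI1 in untreated cells between the times became 0.023 with the filter of at least 1 CPM, and the interaction of FDFT1 became 0.011 with RLE scaling, 0.028 with that filter and 0.007 by DESeq2. Leaving out 1 library, the log2 fold change of INSIG1 ranged between -0.135 and 0.280 for irradiation at 24 h, between -0.002 and 0.414 for 24 h against 5 h in irradiated cells, between -0.051 and 0.197 in untreated cells and between -0.069 and 0.334 in the interaction. The interactions of FDFT1 and LSS ranged between -0.087 and 0.037 and between -0.080 and 0.139. The block changed no call of the 6 genes between the times or in the interaction. The cause of these differences was not tested.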
